A study of Mus musculus with 3 samples.

Results

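The 42 genes described here encode the enzymes that copy DNA and the factors that open S phase, and they were taken as a list of gene symbols, by function, from the 20145 genes that probes of the arrays named. They comprised 4 origin licensing genes, 12 genes of the replicative helicase and its activators, 6 of the sliding clamp and its loader, 3 of the single-strand DNA binding complex RPA, 7 of the polymerases and primase, 2 of Okazaki fragment joining, 4 of nucleotide supply and 4 G1/S regulators. Of these, 38 genes had 1 probe and 4 had 2, each probe a single spot. *Ccne2*, which encodes cyclin E2, was not well above background on any of the 3 arrays, which left 41 genes with a value.

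Before S phase, the origin recognition complex, Cdc6 and Cdt1 load the MCM ring onto DNA, and Cdc45 and the GINS complex then turn that ring into the active helicase. RPA coats the exposed single strands, the primase and DNA polymerase alpha start each fragment, and the processive polymerases extend it on the PCNA clamp, while ribonucleotide reductase and thymidine kinase supply the nucleotides. Many of these genes are targets of E2F factors, which are held in check by RB family proteins in cells that leave the cycle. In the embryonic medial ganglionic eminence (MGE), the ventral forebrain domain that gives rise to most cortical interneurons, progenitors divide in the ventricular and subventricular zones and *Lhx6* is turned on around the time that their neuronal progeny stop dividing.

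Total RNA of 3 sorted populations was measured on 3 one-color arrays, 1 per population. ES-Lhx6-GFP+ (ES-GFP+) and ES-Lhx6-GFP− (ES-GFP−) cells were the live cells with and without GFP of embryoid body aggregates from male J14 embryonic stem (ES) cells of 129S4/SvJae background, after 12 days of a protocol meant to yield MGE-like cells, with the Wnt inhibitor Dkk-1 at 100 ng/ml and the hedgehog agonist SAG at 6 nM. MGE-Lhx6-GFP+ (MGE-GFP+) cells came from the MGE of E12.5 embryos of CD1 background, labeled female. All 3 populations carried an Lhx6-GFP BAC transgene, in which *Lhx6* control sequences drive GFP, and per the labels the J14 cells also carried a viral 692-mCherry enhancer reporter. J14 is 1 cell line, the GFP− population is everything live that the BAC did not mark, and the MGE and ES populations differ in strain, sex, tissue and culture at once. In a sorted population, fewer dividing cells and less of an RNA per cell cannot be told apart.

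All 3 arrays lay on 1 slide. Between 77.1% and 90.6% of the 55681 mouse probes were well above background, and spots of repeated probes varied by 0.139 to 0.144 (SD of log2 intensity), so that 2 SDs of a difference between arrays came to 0.40 on the log2 scale or 1.32-fold. That spread covers spots within an array and no variation between cultures, embryos or sorts. No test could be made with 1 array per population, and no p-value is given. Intensities are given below as scanned, before scaling between arrays, in the order ES-GFP+, ES-GFP− and MGE-GFP+, and differences after each array was scaled to its 75th percentile. The 106 control probes for adenovirus and synthetic sequences were brighter on the ES-GFP+ array, with a median intensity of 69.9 against 11.5 for ES-GFP− and 7.73 for MGE-GFP+ cells, and a 95th percentile of 377, 208 and 152. A gene at or under that 95th percentile is called within the control range. Of the 41 genes, 20 were within it on the ES-GFP+ array, 5 on the ES-GFP− and 8 on the MGE-GFP+ array, and 21 were above it on all 3. As a check of the labels, all 8 MGE lineage markers, including *Nkx2-1*, *Lhx6* and *Lhx8*, were higher in both GFP+ populations than in ES-GFP− cells, and all 8 were above the control range on every array.

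Sequence before the gene start was available from RefSeq for 34 of the 42 genes, in 39 windows of 250 bases before and 50 after the start. *Mcm4*, *Gins1*, *Gins2*, *Gins4*, *Rfc2*, *Prim2*, *Pole* and *Ccne2* had none. The windows were searched on both strands for 3 spellings of the E2F motif (TTTCGCGC, TTTGGCGC and TTCCCGCC), for CCAAT, the letters of the box bound by NF-Y, and for the letters TTTGAA or TTTAAA of the cell cycle homology region (CHR). Matches may overlap one another. The 160 bases before the start (GRCm38.p6) are shown for 6 genes with E2F letters in that stretch, *Mcm6*, *Mcm5* and *Rrm1*, whose difference between ES-GFP+ and ES-GFP− cells was past the repeat-spot spread, and *Pola1*, *Rfc3* and *Prim1*, whose difference was within it. Each reads 5′ to 3′ along the gene, and capitals mark E2F letters on either strand.
Mcm6 (chr1:128359706-128359865, - strand): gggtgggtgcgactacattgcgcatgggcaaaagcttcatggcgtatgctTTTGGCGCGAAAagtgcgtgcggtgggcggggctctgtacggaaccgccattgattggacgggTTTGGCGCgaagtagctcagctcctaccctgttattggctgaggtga
Mcm5 (chr8:75109349-75109508, + strand): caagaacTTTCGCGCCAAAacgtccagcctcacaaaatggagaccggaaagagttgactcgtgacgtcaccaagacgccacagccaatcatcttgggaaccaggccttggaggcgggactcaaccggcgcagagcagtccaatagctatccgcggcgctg
Rrm1 (chr7:102441535-102441694, + strand): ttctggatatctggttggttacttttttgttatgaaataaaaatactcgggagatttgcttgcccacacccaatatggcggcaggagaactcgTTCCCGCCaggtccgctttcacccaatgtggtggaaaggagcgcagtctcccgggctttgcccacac
Pola1 (chrX:93632156-93632315, - strand): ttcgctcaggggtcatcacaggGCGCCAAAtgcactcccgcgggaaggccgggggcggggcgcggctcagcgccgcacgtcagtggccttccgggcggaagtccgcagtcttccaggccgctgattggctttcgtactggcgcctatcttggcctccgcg
Rfc3 (chr5:151651209-151651368, - strand): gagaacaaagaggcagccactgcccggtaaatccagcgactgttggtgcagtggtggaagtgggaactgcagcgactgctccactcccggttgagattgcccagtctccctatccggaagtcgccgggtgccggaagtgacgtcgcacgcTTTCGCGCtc
Prim1 (chr10:128015055-128015214, + strand): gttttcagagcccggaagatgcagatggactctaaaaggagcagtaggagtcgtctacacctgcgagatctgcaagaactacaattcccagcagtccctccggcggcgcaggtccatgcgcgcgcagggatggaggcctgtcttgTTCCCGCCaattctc

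In *Mcm6* the first run of capitals is a pair of overlapping matches on opposite strands and the second a further match, so that this stretch holds 3 matches. *Mcm5* has 2 matches, which overlap in the same way, and the other 4 stretches have 1 each. *Orc1*, which encodes the largest subunit of the origin recognition complex, also held 1 match there. In *Cdt1*, *E2f2*, *Lig1*, *Mcm3*, *Mcm7*, *Pold1*, *Pole2* and *Rfc4* the matches lay after the start. In all, 15 of the 34 genes (44.1%) held E2F letters in the 300-base window, against 917 of 27025 genes (3.39%). CCAAT stood in 61.8% of these genes and in 41.1% of all genes, while the CHR letters stood in 26.5% and 30.6%. The 25 mitosis and spindle genes with a window held E2F letters in 1 gene, CHR letters in 21 (84%) and CCAAT in 19 (76%).

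**Figure D1:**
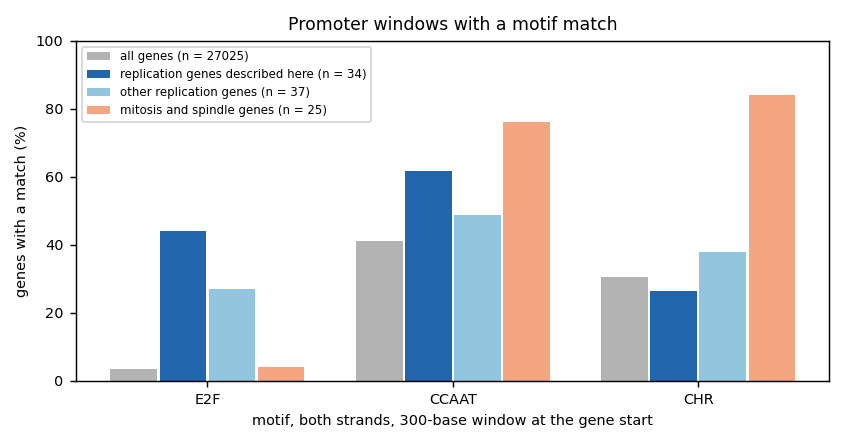
Share of genes (%) whose 300-base window around the start holds each motif, for all genes with a window (n = 27025), the replication genes described here (n = 34), other replication genes (n = 37) and mitosis and spindle genes (n = 25). E2F letters stood in 44.1% of the replication genes and 3.39% of all genes, and CHR letters in 84% of the mitosis genes.

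The presence of E2F letters did not separate the genes by their difference between the ES populations. The median log2 difference, ES-GFP+ minus ES-GFP−, was -0.93 for the 15 genes with the letters and -0.76 for the 19 without. *Mcm6*, with 3 matches, differed by -2.15, *Mcm5* by -1.65 and *Rrm1* by -0.93, whereas *Rfc3* differed by -0.26, *Pola1* by -0.16 and *Prim1* by 0.07. The 9 genes with CHR letters had a median of -1.65 against -0.64 for the 25 without. These are medians of small sets described after the fact, and a match of letters is not a binding site.

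Most replication genes were lower in ES-GFP+ than in ES-GFP− cells. Of 41 genes, 33 were lower, 28 of them past the repeat-spot spread, 10 differed by less than that spread, and *Orc6*, *Prim2* and *Pole* were higher past it. Of all named genes, 35.5% were lower, 18.3% past that spread, and 43.9% were higher past it. At least 2-fold lower were 15 genes (36.6%), namely *Cdt1*, *Mcm2*, *Mcm3*, *Mcm5*, *Mcm6*, *Mcm10*, *Cdc45*, *Gins2*, *Rpa1*, *Pola2*, *Pold1*, *Pole2*, *Rrm2*, *Tk1* and *E2f2*, while 6.4% of all 18655 named genes with a value were. None of the 41 was at least 2-fold higher, against 24% of all genes. These shares depend on dim signal and on scaling. The 15 genes became 25 of 41 (61.0%, and 13.7% of all genes) with arrays scaled to the 50th percentile. With values within the control range raised to its upper edge, they became 8 of the 28 genes that kept a value. That was 28.6%, and 5.97% of all genes. The 24% became 14.9% and 7.10% in the same settings and 5.75% with the deposited log2 values. The median log2 difference was -0.69 over these genes and 0.27 over all named genes, a median less that of all genes of -0.96.

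That array-wide median depends on how the arrays are put on 1 scale: it was 0.27 with each array scaled to its 75th percentile, as here, and -0.18 when scaled to the 50th, and the median of the replication genes moved with it from -0.69 to -1.13. It was -0.61 to -1.13 over all 10 other settings tried. In every setting that gave the gene a value, 31 genes were lower in ES-GFP+ cells and *Orc6* was higher. Of the 31, 24 had a value in all 10, and the other 7 had none once values within the control range were raised to its edge. *Orc1*, *Rfc2*, *Rfc5*, *Pola1*, *Prim1*, *Prim2*, *Pole*, *Lig1* and *Tyms* changed sign in at least 1.

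**Figure D2:**
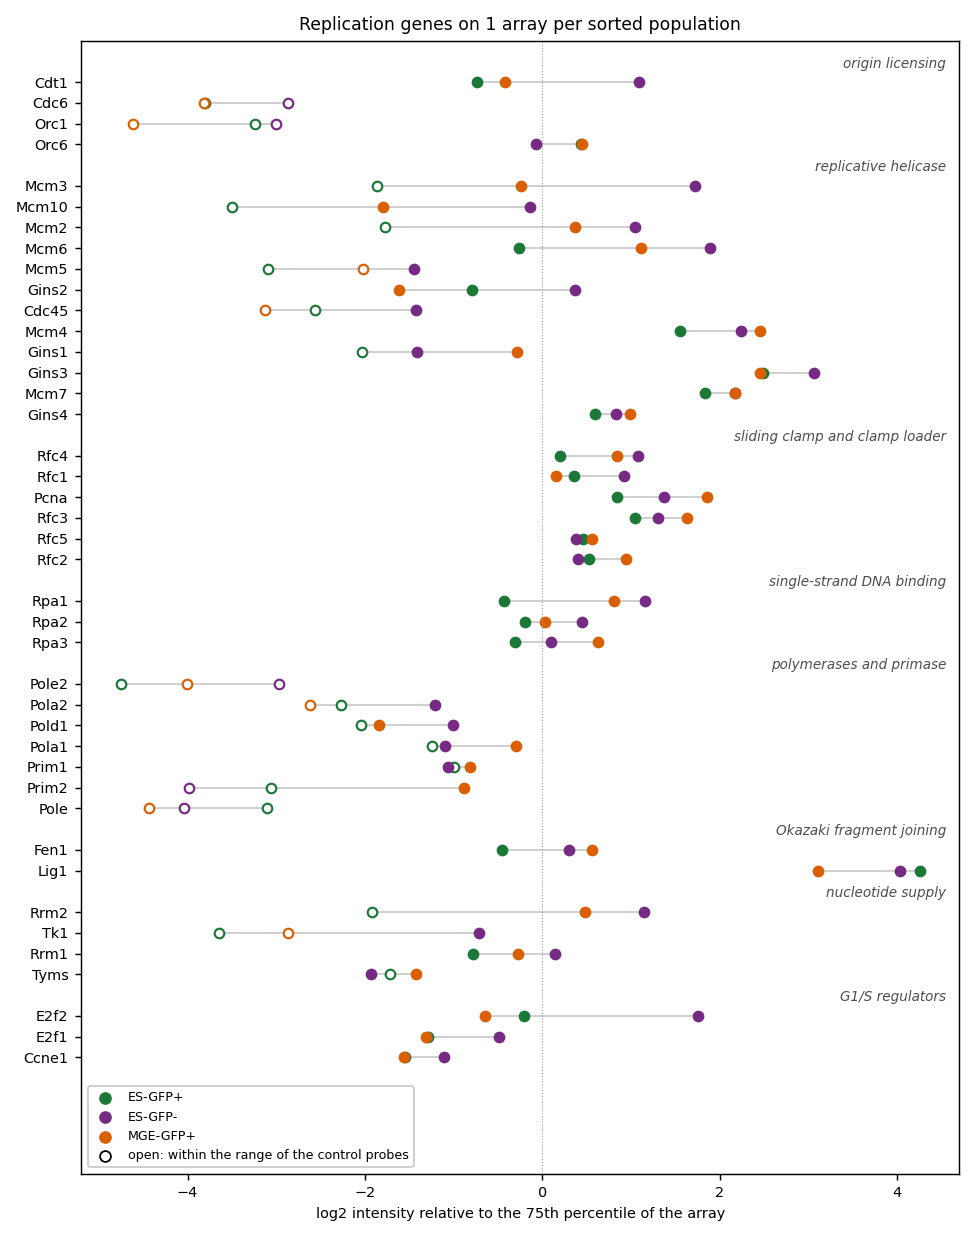
Level of each of the 41 measured genes on the 3 arrays, as log2 intensity relative to the 75th percentile of the array (x axis), grouped by role and ordered within a role by the difference between the ES populations. Open points are within the range of the control probes on that array, as 20 genes are on the ES-GFP+ array; levels are to be compared along a row, not between genes.

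All 12 helicase genes were lower in ES-GFP+ than in ES-GFP− cells, 10 past the repeat-spot spread and 7 by at least 2-fold, with a median log2 difference of -1.15. *Mcm3*, a subunit of the MCM2-7 ring, had an intensity of 205 in ES-GFP+, 2787 in ES-GFP− and 488 in MGE-GFP+ cells. Its ES difference of -3.59, or 12.1-fold, was the largest of the 41 genes. *Mcm2*, another ring subunit, had intensities of 218, 1742 and 741 in the same order, a difference of -2.82 between the ES populations.

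*Mcm10*, which helps to activate the loaded helicase, had 66.1, 766 and 166 (-3.36). The ES-GFP+ values of *Mcm2*, *Mcm3* and *Mcm10* lay within the control range, so their folds depend on how dim signal is treated. When values within that range were raised to its upper edge, *Mcm3* was still at least 6.56-fold, *Mcm2* at least 4.10-fold and *Mcm10* at least 1.80-fold lower. *Mcm6* needed no such limit, with 623, 3124 and 1247, all above the control range, and was 4.44-fold lower in ES-GFP+ cells.

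The other ring subunits differed less. *Mcm4* had intensities of 2181, 3977 and 3154, and *Mcm7* had 2658, 3787 and 2599, with ES differences of -0.69 and -0.34, the latter within the repeat-spot spread. *Mcm5* was dim, with 87.6, 310 and 142 (-1.65). It was above the control range on the ES-GFP− array alone, and with values in that range raised to its edge no ES difference could be given. The subunits of the ring thus ranged from -3.59 to -0.34. Each was read by 1 probe, and whether their RNAs changed by unequal amounts was not tested.

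Among the helicase activators, *Gins2* (430, 1086 and 187) and *Cdc45* (126, 314 and 65.6) differed by -1.16 and -1.14 between the ES populations. *Gins1* (182, 318 and 471) and *Gins3* (4190, 7031 and 3151) differed by -0.63 and -0.57. *Cdc45* and *Gins1* were within the control range on the ES-GFP+ array. With values in that range raised to its edge, neither had an ES difference. *Gins4* had the smallest difference of the helicase genes, -0.23, with 1126, 1495 and 1140, within the repeat-spot spread. The 4 GINS subunits differed in their order as well: *Gins1* was highest in MGE-GFP+ cells and *Gins2* lowest there.

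The 4 nucleotide supply genes had a median ES difference of -1.93. *Rrm2*, the subunit of ribonucleotide reductase that limits its activity in S phase, had intensities of 197 in ES-GFP+, 1861 in ES-GFP− and 800 in MGE-GFP+ cells. The ES difference was -3.06, or 8.35-fold, and at least 4.38-fold with values within the control range raised to its edge. *Tk1*, the cytosolic thymidine kinase, had 59.5, 513 and 79.1 (-2.93), high in ES-GFP− cells alone, and with the raised edge its difference was at least 1.21-fold. *Rrm1*, the large reductase subunit, was above the control range everywhere with 433, 928 and 476 (-0.93). *Tyms*, thymidylate synthase, had 227, 220 and 215 and a difference of 0.22, within the repeat-spot spread. Its ES-GFP+ value was within the control range, and with the raised edge it had no ES difference.

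In origin licensing, *Cdt1*, the MCM loading factor, had intensities of 447, 1794 and 429, so that it was similarly low in both GFP+ populations, 3.56-fold lower in ES-GFP+ than in ES-GFP− cells. *Orc6*, a small subunit of the origin recognition complex, went the other way with 1008, 799 and 784 and an ES difference of 0.51. *Orc1* (78.8, 105 and 23.5) differed by -0.24 and was within the control range on all 3 arrays. *Cdc6* was within it too. Its first probe had intensities of 33.2, 93.5 and 26.5 and its second 85.6, 143 and 62.8, both highest in ES-GFP− cells, with differences of -1.32 and -0.56.

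The clamp and its loader differed little between the ES populations, with a median of -0.40 over 6 genes and none at 2-fold. *Pcna*, the sliding clamp, had intensities of 1335, 2186 and 2087 (-0.54). *Rfc4* had the largest difference, -0.87, and its 2 probes read alike (-0.87 and -0.88). *Rfc1* and *Rfc3* differed by -0.56 and -0.26. *Rfc5* (1025, 1099 and 851) and *Rfc2* (1072, 1109 and 1104) were level, with differences of 0.07 and 0.13, both within the repeat-spot spread. Both were of the opposite sign with arrays scaled to the 50th percentile, and *Rfc5* under other settings as well.

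All 3 RPA genes were lower in ES-GFP+ than in ES-GFP− cells past the repeat-spot spread, and all were above the control range on the 3 arrays. *Rpa1*, the large subunit, had 552, 1878 and 1005 (-1.59), and *Rpa3*, the smallest, 604, 903 and 888 (-0.40). *Rpa2* lay between at -0.64. As in the MCM ring, the probes for 1 complex gave unequal differences, with 1 probe for each gene.

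The 7 polymerase and primase genes were mixed, with a median ES difference of -0.16. *Pole2*, the second subunit of polymerase epsilon, had intensities of 27.6, 107.5 and 35.8 (-1.78), all within the control range, while the catalytic subunit *Pole* had 122, 63.6 and 29.8 on one probe and 61.8, 41.2 and 23.9 on the other. *Pole* was thus highest in ES-GFP+ cells on both probes, by 1.11 and 0.76, but every one of these values lay within the control range, and the gene's difference of 0.94 turned to -0.20 after quantile normalization. *Prim2*, the large primase subunit, had 89.7, 53.1 and 312, a difference of 0.93 that turned to -0.17 in the same way, and only its MGE value was above the control range. *Prim1*, the catalytic primase subunit, had 374, 402 and 327 (0.07), with its ES-GFP+ value within the control range and no ES difference with the raised edge. *Pola2* and *Pold1*, subunits of polymerases alpha and delta, differed by -1.06 and -1.04, and *Pola1* by -0.16, but all 3 were within the control range on the ES-GFP+ array, and with values in that range raised to its edge none of them had an ES difference.

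Of the Okazaki fragment genes, *Fen1*, the flap nuclease, had intensities of 544, 1038 and 845 (-0.76). *Lig1*, DNA ligase I, had 14215, 13792 and 4973, level between the ES populations (0.22) and lowest in the MGE. Among the G1/S regulators, *E2f2* had 646, 2833 and 367, high in ES-GFP− cells alone and 3.88-fold lower in ES-GFP+ cells. *E2f1* (304, 602 and 232) differed by -0.81. Its ES-GFP+ value was within the control range, and with the raised edge it was at least 1.41-fold lower. The 2 probes of *Ccne1*, cyclin E1, disagreed, with ES differences of -0.78 and -0.11, and both were within the control range on the ES-GFP+ array.

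**Figure D3:**
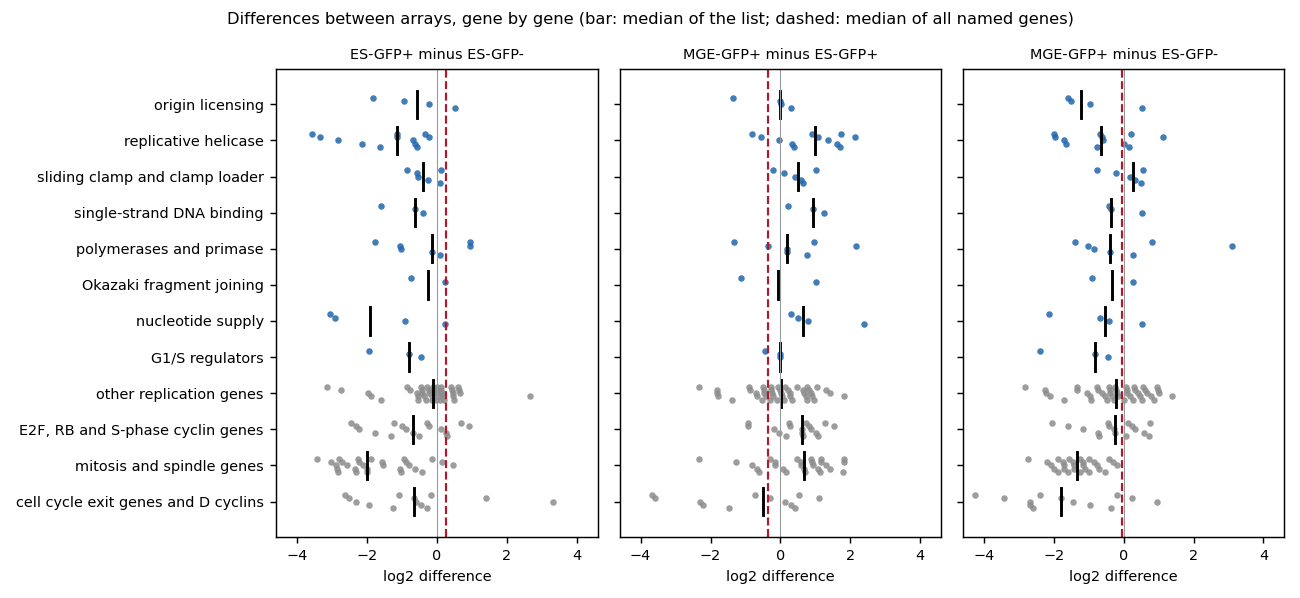
Log2 difference of each gene in the 3 comparisons (x axis), by role for the replication genes (blue) and for 4 other lists (grey); black bars are list medians and the dashed line the median of all named genes. All 12 helicase genes lie left of 0 in ES-GFP+ minus ES-GFP− (median -1.15), where the mitosis genes have a median of -2.01.

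The difference between the ES populations was also present in genes bright on all 3 arrays. Of the 21 replication genes above the control range on each, 17 were lower in ES-GFP+ than in ES-GFP− cells, 14 past the repeat-spot spread, with a median of -0.57. Over all 8956 named genes that met the same condition the median was 0.07 and 44.1% were lower. At least 2-fold lower were 5 of the 21 (23.8%) and 4.15% of the 8956, and at least 2-fold higher 0 and 6.05%. Genes that were bright in 1 population only are missing from both sets.

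MGE-GFP+ cells had higher levels than ES-GFP+ cells of many of the same genes. Of 41 genes, 29 were higher, 20 past the repeat-spot spread, and 11 (26.8%) were at least 2-fold higher, namely *Mcm2*, *Mcm3*, *Mcm5*, *Mcm6*, *Mcm10*, *Gins1*, *Pcna*, *Rpa1*, *Prim2*, *Fen1* and *Rrm2*, against 5.48% of all 18580 named genes with a value. Past the spread, 20.3% of all named genes were higher and 48.7% lower, beside 6 of the 41 lower. At least 2-fold lower in the MGE were 3 genes, *Orc1*, *Pole* and *Lig1*, against 32.2% of all genes. The 11 genes became 24 of 41 (58.5%, and 25.96% of all genes) at the 50th percentile. With the raised edge they became 6 of the 28 that kept a value (21.4%, and 7.59% of all genes). The 32.2% became 17.1% and 10.07% in those settings and 7.46% with the deposited log2 values. The median log2 difference, MGE-GFP+ minus ES-GFP+, was 0.39 for the replication genes and -0.36 for all named genes. This comparison and the one between the ES populations share the ES-GFP+ array, whose control probes were the brightest.

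The largest differences there were those of *Rrm2* at 2.40, *Prim2* at 2.17 and *Mcm2* at 2.14. With values within the control range raised to its edge, *Rrm2* came to 1.46 and *Mcm2* to 1.35, but *Prim2* to 0.10. *Mcm6*, *Rpa1*, *Pcna* and *Fen1*, above the control range on both arrays, were higher in the MGE by 1.38, 1.24, 1.02 and 1.01. The helicase list had a median of 0.99, RPA 0.93, nucleotide supply 0.65, the clamp and loader 0.50, and the polymerases and primase 0.20. Origin licensing (4 genes) and G1/S regulators (3 with a value) had medians of 0.00 and -0.02, beside the -0.36 of all named genes. Over the other settings these medians ran from -0.03 to 0.75 and from -0.44 to 0.73. Wherever a setting gave them a value, 28 genes were higher in the MGE, 22 of them with a value in all 10, and *Gins2* and *Lig1* were lower. *Cdc45*, *E2f2*, *Orc1* and *Pole*, lower in the MGE as scaled here (-0.56, -0.44, -1.37 and -1.33), turned positive under at least 1 of them.

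Against ES-GFP− cells, the MGE-GFP+ cells were lower for 26 of 41 genes, 23 past the repeat-spot spread, and higher for 15, of which 8 were past it. Of all named genes, 52.6% were lower, 34.5% past the spread, and 28.3% were higher past it. The 10 genes at least 2-fold lower (24.4%) were *Orc1*, *Cdt1*, *Mcm3*, *Mcm10*, *Cdc45*, *Gins2*, *Pola2*, *Pole2*, *Tk1* and *E2f2*, beside 17.2% of all 17025 named genes with a value, and the 2 higher (4.88%) were *Gins1* and *Prim2*, beside 9.9%. Of the 10, *Orc1*, *Cdc45*, *Pola2*, *Pole2* and *Tk1* were within the control range on the MGE-GFP+ array. With the raised edge the 10 became 6 of the 37 that kept a value (16.2%, and 10.6% of all genes). With the deposited log2 values they became 6 of 42 (14.3%, and 7.87% of all genes). The 2 higher stayed 2 in both settings, beside 10.5% and 5.60% of all genes. The median was -0.45, and -0.06 over all named genes. The 21 genes above the control range on all 3 arrays were about evenly split, with 11 lower and 10 higher. Their median was -0.23, beside 0.15 over the 8956 named genes that met the same condition. *E2f2*, *Gins2* and *Mcm3*, above the control range on both arrays, differed by -2.40, -1.99 and -1.97, and *Gins1* by 1.12. *Tk1* differed by -2.15, with its MGE value within the control range, and by -1.21 with that value raised to the edge. *Prim2* differed by 3.11, with its ES-GFP− value within the control range, and by 1.13 with that value raised. *Pcna*, *Rfc2*, *Rpa3*, *Pola1*, *Tyms* and *Orc6* were higher as well, by 0.48 to 0.80. This comparison does not use the ES-GFP+ array, and wherever a setting gave a value, 24 genes were lower (21 of them with a value in all 10 settings) and 14 higher, with *Mcm7*, *Rfc4* and *Pole* changing sign.

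Set in order over the 3 populations, 24 of the 41 genes were highest in ES-GFP− cells, 15 in MGE-GFP+ and 2 in ES-GFP+ cells, and 23 were lowest in ES-GFP+ cells. Orders were not counted over all named genes, so these counts and those below have no array-wide share beside them. By pairs, 35.5% of all named genes were lower in ES-GFP+ than in ES-GFP− cells, and 63.6% lower in MGE-GFP+ than in ES-GFP+ cells. In 9 genes every step of ES-GFP− over MGE-GFP+ over ES-GFP+ was past the repeat-spot spread: *Mcm2*, *Mcm3*, *Mcm5*, *Mcm6*, *Mcm10*, *Pole2*, *Rrm1*, *Rrm2* and *Tk1*. Of these, *Pole2* was within the control range on all 3 arrays and *Mcm5* and *Tk1* on both GFP+ arrays, so that the order of their GFP+ levels is read from signal no brighter than the controls. *Cdc45*, *Gins2* and *E2f2* also had every step past the repeat-spot spread, but with the MGE lowest. Of these, *Cdc45* was within the control range on both GFP+ arrays. The step between the GFP+ populations turned in sign for *Cdc45* and *E2f2* in at least 1 other setting. In a further 6 genes the ES-GFP− level stood above the other two, which did not differ beyond the spread, with ES-GFP+ nominally second, and in 3 more with the MGE second. The remaining orders held 1 to 3 genes each, among them 6 genes whose neighbours in the order did not differ beyond the spread at either step.

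Related genes give the setting of these values. For comparison, 35.5% of all named genes were lower in ES-GFP+ than in ES-GFP− cells, 18.3% past the repeat-spot spread, and 43.9% were higher past it. Of 44 other replication genes (origin, loader, polymerase, chromatin assembly and checkpoint-linked genes), 13 were lower and 9 higher in ES-GFP+ than in ES-GFP− cells past the repeat-spot spread, with a median of -0.11. The lowest were *Top2a*, the topoisomerase of dividing cells, at -3.15, *Gmnn*, which encodes the Cdt1 inhibitor geminin, at -2.76, and *Asf1b*, a histone chaperone, at -1.98. *Mcm9* and *Atad5* were the highest at 2.66 and 0.65. *Mcm9*, an MCM paralog outside the ring, had intensities of 168, 30.1 and 25.8, within the control range on all 3 arrays.

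Of 17 measured E2F, RB and S-phase cyclin genes, 10 were lower in ES-GFP+ cells past the repeat-spot spread and 2 were higher, with a median of -0.68. *E2f8*, a repressor E2F that was not well above background in ES-GFP+ cells, was at -2.47 or lower, *Ccna2*, the S-phase cyclin A2, at -2.31 and its kinase *Cdk2* at -2.24. *Cdk6* was at 0.91 or higher, within the control range on all 3 arrays, and *Rbl1* and *Rbl2*, which encode RB relatives, were at 0.69 and 0.28, the latter within the spread. Of 28 mitosis and spindle genes, 26 were lower in ES-GFP+ cells, with a median of -2.01, led by *Anln* at -3.43, *Ccnb1* at -3.03 and *Birc5* at -2.91, and all 28 were lower in the MGE than in ES-GFP− cells, with a median of -1.33. Among all named genes, 35.5% were lower between the ES populations and 52.6% lower in the MGE than in ES-GFP− cells. *Cenpf* and *Kif20a* were at 0.45 and 0.14 between the ES populations, both within the control range on all 3 arrays, and *Aurkb*, well above background on the ES-GFP− array alone, was at -0.13 or lower. Of 13 genes of cell cycle exit and D cyclins (the list holds CDK inhibitors, anti-proliferative genes and the cyclins that drive G1), 11 were lower in ES-GFP+ cells, with *Cdkn2c* at -2.65 or lower, and the D cyclins *Ccnd1* at -2.53 and *Ccnd2* at -2.31. *Cdkn2a* and *Cdkn2b*, both within the control range on every array, were at 3.30 and at least 1.41, and *Cdkn2d* was at -0.17. In MGE-GFP+ minus ES-GFP+, 17 of 27 measured mitosis genes were higher and 5 lower past the spread, with a median of 0.68. The E2F, RB and cyclin list had a median of 0.63. Of the 44 other replication genes, 14 were higher and 14 lower past the spread, with a median of 0.01. Past the spread in that comparison, 20.3% of all named genes were higher and 48.7% lower, with a median of -0.36.

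Markers of other cells also differed between the arrays, not always in the direction of the replication genes. All 10 radial glia markers, genes of the dividing neural progenitor, were lower in ES-GFP+ than in ES-GFP− cells, and their summed intensity was 9753 in ES-GFP+, 54238 in ES-GFP− and 8912 in MGE-GFP+ cells, none of them at 0. Their median ES difference was -1.94, and 6, 10 and 7 of the 10 were above the control range on the 3 arrays in that order. In MGE-GFP+ minus ES-GFP+ their median was -0.06, with 7 of the 10 lower, whereas the replication genes had 0.39. All named genes had a median of -0.36 there, with 63.6% lower. The 9 neuron markers were all above the control range on each array, and 8 of them were higher in ES-GFP+ (median 0.68) and 8 in MGE-GFP+ cells (median 0.97) than in ES-GFP− cells. Their summed intensity was 247398, 222956 and 235533, most of it from *Snap25*. Among erythroid markers, the summed intensity was 2035, 1307 and 11881, highest in the MGE sample, and that of mesenchyme markers was 2739, 3865 and 158. Of 6 pluripotent cell markers, 3 were lower in ES-GFP+ and 5 in MGE-GFP+ than in ES-GFP− cells (medians -0.40 and -2.20), with *Pou5f1* at intensities of 192, 612 and 59.2 and *Esrrb* at 336, 683 and 23.0. Their summed intensity was 231879, 252997 and 225372, nearly all from the 1 *Nanog* probe (230708, 251126 and 225105). In the MGE sample *Esrrb*, *Zfp42* (27.6) and *Dppa3* (9.75) were within the control range. Whether the *Nanog* probe read *Nanog* RNA was not tested, and the sum is not taken as a level of pluripotent cells. Mitosis genes, radial glia markers and replication genes were measured in the same RNA, and the part of these cells in the replication gene differences was not tested.

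**Figure D4:**
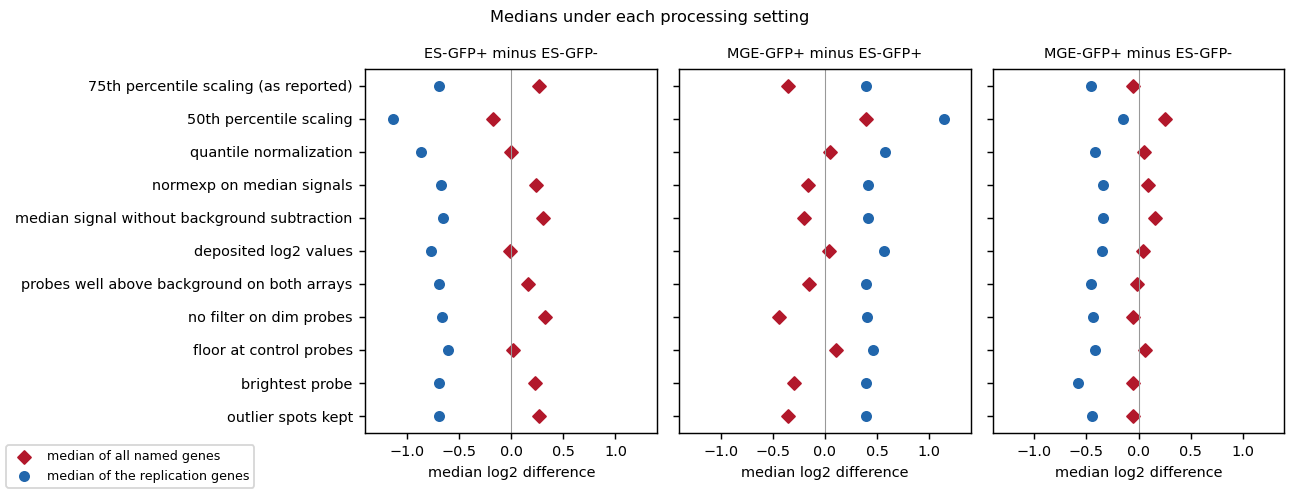
Median log2 difference (x axis) of the replication genes (circles) and of all named genes (diamonds) in the 3 comparisons under the reported setting and the 10 others. The replication genes keep a median under that of all genes in ES-GFP+ minus ES-GFP− (-1.13 to -0.61 over the others) and over it in MGE-GFP+ minus ES-GFP+ (0.39 to 1.14).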

How the data were processed

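Total RNA of 3 sorted populations, 1 array each, was read from 1-color Agilent arrays. The authors' scanner files hold the intensity of each spot, extracted with Agilent Feature Extraction 10.7.3.1 per the file headers, after background subtraction and with no scaling between arrays. A series table of normalized log2 values, likewise deposited, has column medians of 7.68 to 7.69; its scale and centring are not stated, and it was used as an alternative. Amplification kit and array format are described differently in the labels and in the methods of the study.

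Spots with outlier flags were left out (none was saturated), repeated spots averaged, and log2 intensity taken less the array's 75th percentile over mouse probes. A probe not well above background was raised to the lowest such value on its array. Probes were named through their accession and a RefSeq gene table (26582 of 55681 probes), and a gene is the mean of its probes. With 1 array per population there were no replicates and no test; differences were set against 2 SDs of the repeated spots (probes with at least 5). The gene calculation was tested on simulated data. Promoter windows were RefSeq's (GRCm38.p6). Normexp used limma 3.58.1 in R 4.3.3, and all else Python 3.11.15, pandas 2.3.3 and numpy 2.4.6.

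The 42 genes and the other gene lists were chosen with earlier results of these data known. In each role the genes with the largest and the smallest difference between the ES populations, and those opposite to most, are given in full; of each other list, the 3 highest and 3 lowest, except 1 gene that is not reported here. Of 10 alternatives, 1 was added after the files were seen. The medians and counts of the replication genes that moved under them are given in the closing section.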

Additional observations from a re-analysis of the deposited data

How the results depend on the processing

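With 1 array per population no array could be left out. No paired analysis was possible because each group has 1 sample. Of 30 medians of the replication genes under 10 settings, 27 moved by less than 1 SD of a difference between repeated spots. Scaling to the 50th percentile moved the medians to -1.13 (ES-GFP+ minus ES-GFP−), 1.14 (MGE-GFP+ minus ES-GFP+) and -0.15 (MGE-GFP+ minus ES-GFP−). Of 90 counts, 72 stayed within 1.5 times. No median or count moved past these limits when only probes well above background on both arrays were used. The same held without a filter on dim probes and with outlier spots kept. For ES-GFP+ against ES-GFP− cells, genes at least 2-fold lower were 25 at the 50th percentile and 8 with the floor at the control probes, and 1 was at least 2-fold higher with the brightest probe. For MGE-GFP+ against ES-GFP+ cells, genes at least 2-fold lower were 0 at the 50th percentile and 1 under quantile normalization, normexp, unsubtracted median signals, the deposited log2 values and the control floor; those at least 2-fold higher were 24 at the 50th percentile and 6 with the control floor; those lower at all were 4, 6, 6 and 5 at the 50th percentile, under quantile normalization, the deposited values and the control floor. For MGE-GFP+ against ES-GFP− cells, genes at least 2-fold lower were 6 with the deposited values and 6 with the control floor, and 1 was at least 2-fold higher under normexp. The control floor leaves fewer genes with a value; the cause of the others was not tested.

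Signs turned as follows. At the 50th percentile, MGE-GFP+ minus ES-GFP+ was 0.18 for *Cdc45*, 0.31 for *E2f2* and 0.45 for the list of cell cycle exit genes and D cyclins. Under quantile normalization it was 0.27 for *Orc1*, 0.57 for *Cdc45* and 0.24 for *Pole*, and with the deposited values 0.22 for *Cdc45* and 0.16 for *Pole*. The ES difference was -0.17 for *Prim2* and -0.20 for *Pole* under quantile normalization, and -0.12 for both with the deposited values.

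A normexp correction on mean signals was not run, since the scanner files used here hold median signals; normexp on those was chosen after seeing the data, as were the counts of genes at least 2-fold higher. Signal over background limits the 20 genes within the control range on the ES-GFP+ array.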
